A study of Mus musculus with 4 samples.

Results

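The cells described here are CD4+ T cells of the brain borders that carried mRNA of Tnfsf8, the gene of CD153. They were chosen by their UMIs (unique molecular identifiers, each counting 1 captured mRNA molecule): each held 1 or more UMIs of the Cd3 genes (Cd3d, Cd3e, Cd3g), 1 or more of Cd4 and 1 or more of Tnfsf8, and none of Cd8a, Cd8b1, Foxp3 or Ccr7, in cells with 200 to 7000 detected genes and at most 5% mitochondrial UMIs. Of 4801 cells in 4 libraries, 4208 passed that filter and 146 were members: 8 from young meninges, 6 from young choroid plexus, 76 from aged meninges and 56 from aged choroid plexus. The libraries hold T cells sorted by flow cytometry from the meninges or the choroid plexus (the secretory tissue of the brain ventricles) and sequenced from the 5′ end on the 10x Genomics platform. All donors were female C57BL/6 mice with no treatment or engineered allele named. Young mice were 10 weeks old, aged mice 18 months old, and each library pooled 5 mice. There is thus 1 library for each tissue and age, no mouse can be told from another within it, and no difference in level between ages or tissues was tested. The library of young meninges held 3737140 UMIs, that of young choroid plexus 2295950, that of aged meninges 4262917 and that of aged choroid plexus 3957717. Sets of 4 values follow this order.

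CD153 is a membrane ligand of the tumour necrosis factor superfamily, and its receptor is CD30, encoded by Tnfrsf8. Activated T cells display it, and a CD153+ PD-1+ CD4+ population that responds poorly through its T cell receptor and secretes osteopontin has been described in ageing mice as senescence-associated T cells. Genes tied to that population include Pdcd1 (PD-1) and Lag3, which are inhibitory receptors, Cd200, which encodes a membrane glycoprotein that signals to the inhibitory receptor CD200R, Spp1 (osteopontin), and Sostdc1, a secreted antagonist of bone morphogenetic protein and Wnt signals.

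Tnfsf8 lies on the minus strand of chromosome 4 (GRCm38, the mm10 build, 63831308 to 63861347). Sostdc1 lies on the plus strand of chromosome 12 (36314139 to 36318452) and Spp1 on the plus strand of chromosome 5 (104435118 to 104441050). Tnfsf8 chose the members, so its own values are a description. Members made up 7.41%, 9.68%, 26.7% and 30.1% of the CD4+ T cells without Foxp3 or Ccr7 UMIs. The exact (Clopper-Pearson) 95% intervals, which cover counting error only, ran from 3.25% to 14.1% in young meninges, 3.63% to 19.9% in young choroid plexus, 21.6% to 32.2% in aged meninges and 23.6% to 37.2% in aged choroid plexus. With every cell thinned to 1000 UMIs the shares were 1.87%, 3.23%, 15% and 17.3%. The aged shares were above the young shares in both tissues and the aged tissues differed little.

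**Figure D1:**
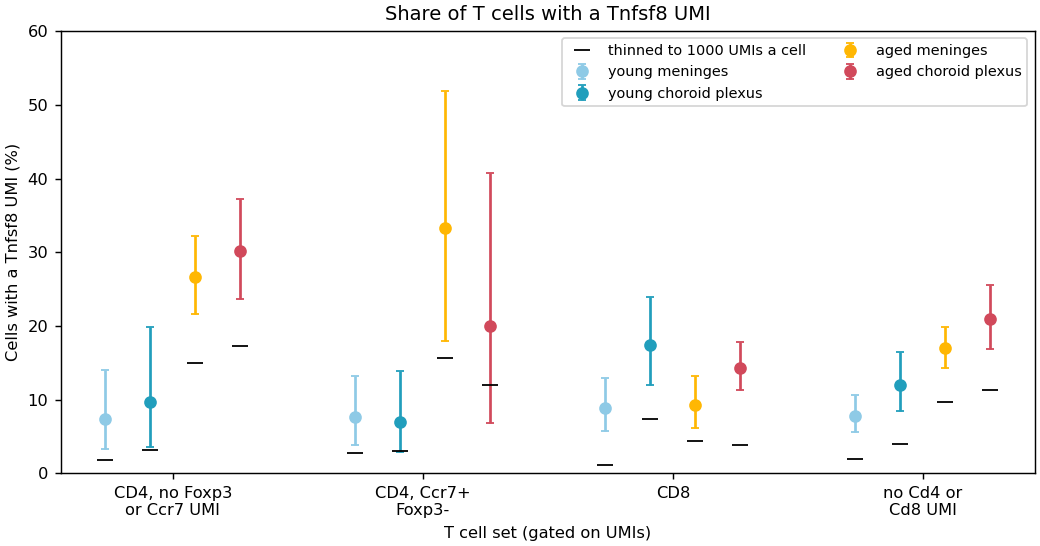
Percent of T cells with at least 1 Tnfsf8 UMI (y axis) in 4 sets of T cells (x axis) of each library, with exact 95% binomial intervals and, as black dashes, the share after thinning to 1000 UMIs a cell. CD4+ cells without Foxp3 or Ccr7 UMIs had 26.7% and 30.1% in the aged libraries and 7.41% and 9.68% in the young ones.

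Most members rested on very few molecules. A single Tnfsf8 UMI admitted 7 of 8, 6 of 6, 47 of 76 and 30 of 56 members, and just outside the rule stood 100, 56, 209 and 130 cells with no Tnfsf8 UMI that passed every other gate. The highest count in a member was 2 UMIs in young meninges and 1 in young choroid plexus, against 11 and 15 in the aged libraries. The summed level in members was 190, 296, 754 and 754 CPM (UMIs per 1000000 UMIs summed over that set of cells). Tnfsf8 was also found outside CD4+ T cells: 8.85%, 17.4%, 9.25% and 14.3% of CD8+ T cells had a Tnfsf8 UMI, at median depths of 3664.5, 3460, 2811 and 3124.5 UMIs a cell. The median depths of the CD4+ cells without Foxp3 or Ccr7 UMIs were 3129, 2843.5, 2159 and 2567.5. After thinning the shares were 1.87%, 3.23%, 15% and 17.3% of these CD4+ cells and 1.15%, 7.32%, 4.38% and 3.84% of CD8+ cells. The shares of aged CD4+ cells thus stood above those of aged CD8+ cells with all UMIs and after thinning. With all UMIs those of young CD4+ cells did not stand above those of young CD8+ cells. After thinning the young meninges share was higher in CD4+ cells, with overlapping exact 95% intervals (0.23% to 6.59% and 0.24% to 3.33%).

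The label was checked on genes that the rule did not use. Trac, the T cell receptor alpha constant gene, had UMIs in 55.3% and 62.5% of aged meninges and aged choroid plexus members and in 52.2% and 56.2% of the Tnfsf8-negative cells. Of the B cell markers, Ighm had 7, 4, 38 and 20 UMIs in members and 69, 37, 61 and 70 in Tnfsf8-negative cells, while Cd79a, Cd79b and Ms4a1 were at 0 in the members of 3 of the 4 libraries. Aged meninges members were the exception, where all 3 of these genes were detected. The 5 B cell markers summed to 148, 198, 245 and 114 CPM in members and to 212, 218, 120 and 243 CPM in Tnfsf8-negative cells. In aged meninges 28.9% of members and 19.6% of Tnfsf8-negative cells had a UMI of them. The 7 macrophage markers had 18 UMIs in aged meninges members, 10 of them of Apoe, and none in the members of the other 3 libraries. In aged meninges they stood at 89.85 CPM in members (9.21% of cells) and 17.2 CPM in Tnfsf8-negative cells (1.44%), so they were higher in members there. The 4 natural killer markers were at 0 in all members, and the 5 gamma-delta T cell genes summed to 0, 2, 3 and 3 UMIs. Of the members, 1, 1, 6 and 2 had a doublet score in the highest 5% of their library, and 2 member barcodes also occurred in another library. The part of these cells in the results below was not tested beyond the values given without them.

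Which genes differ between CD4+ T cells with and without a Tnfsf8 UMI in the same library was tested on summed UMIs. UMIs were summed per library over the members and over the 495 Tnfsf8-negative cells, with the library as a block (4 pairs). Tnfsf8-negative means that no Tnfsf8 UMI was caught, so these cells can include some that carried its mRNA. After thinning, a Tnfsf8 UMI was left in 56% of aged meninges members and 57.1% of aged choroid plexus members. How many Tnfsf8-negative cells carried the mRNA was not tested. Members were higher in the inhibitory receptor genes Pdcd1 and Tigit, in Cd200, in Tnfsf11 and Tnfrsf4 of the tumour necrosis factor superfamily and in the anergy genes Izumo1r and Tbc1d4, and lower in Birc5, Ube2c and histone genes of dividing cells and in Gzmk. In edgeR's quasi-likelihood test with Benjamini-Hochberg adjustment, 28 of 6149 genes (0.455%) were higher and 15 (0.244%) lower at an adjusted p under 0.05, and 467 had an unadjusted p under 0.05. The calls depended on the UMIs per cell and on single libraries. Counting each gene at most once a cell left 1 call, Tbc1d4, among 371 genes with an unadjusted p under 0.05. The 25 called genes still tested kept their direction, but in the same cells in which they had been called. Without young meninges, young choroid plexus, aged meninges or aged choroid plexus there were 18, 5, 8 and 1 higher and 11, 3, 0 and 1 lower calls in edgeR (305 genes had an unadjusted p under 0.05 without aged meninges), and DESeq2 made 7 and 2.

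The lists were counted against a background in which the median log2 fold of all 6149 genes was -0.09 and 42.1% of genes had a positive fold. Inhibitory receptors and Tox genes held 8 tested members of 12, all with a positive fold and a median of 1.24, and 3 of them (Pdcd1, Tigit and Cd200) passed the test. Pdcd1, Lag3 and Cd200 of this list were given as markers with earlier results of these data known, so its count is not independent evidence. Genes of the tumour necrosis factor superfamily had a positive fold in 11 of 12 tested with a median of 0.45, and 2 passed (Tnfsf11 and Tnfrsf4). Anergy genes had a positive fold in 8 of 9 with a median of 0.30, and 2 passed (Izumo1r and Tbc1d4). Follicular helper genes had a positive fold in 6 of 6 with a median of 0.58. None of them passed in edgeR or DESeq2, and Icos, Slamf6 and Maf had an unadjusted p under 0.05 (3 of 6).

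In the other direction, 8 of 9 cell cycle genes had a negative fold with a median of -1.63, and 1 passed (Birc5). Cytotoxic genes had a negative fold in 8 of 10 with a median of -1.18. Of them Gzmk passed as lower and Ccl3 as higher. The interferon-stimulated list had a negative fold in 11 of 12 with a median of -0.37 and none past the test in edgeR or DESeq2 (3 at an unadjusted p under 0.05), and the AP-1 and dissociation list in 10 of 12 with a median of -0.65, with Batf higher and Zfp36 lower. Of the naive and egress list 12 of 13 were negative with a median of -0.47, and Igfbp4 passed. Of the senescence list 8 of 9 were negative with a median of -0.15, and the 1 gene that passed, Cdkn2a, was higher.

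The remaining lists had at most 1 call each. The median was -0.05 for Th1 genes (4 of 10 positive), -0.57 for Th2 genes (2 of 7), 0.15 for Th17 genes (3 of 4), 0.57 for regulatory T cell genes (6 of 7, with Tnfrsf4 higher), 0.14 for memory and S100 genes (10 of 14) and -0.14 for tissue residency genes (3 of 10). It was 0.41 for CD30 signalling genes (8 of 11), 0.05 for antigen-responsive genes (5 of 10), 0.22 for apoptosis regulators (6 of 10) and 0.10 for metabolism genes (5 of 9). In these 10 lists Il17a was the single lower call and Tnfrsf4 the single higher one in edgeR, and DESeq2 called none. The 8 lists without a call had 1 (Th1), 3 (Th2), 6 (memory and S100), 3 (residency), 2 (CD30 signalling), 2 (antigen-responsive), 2 (apoptosis) and 1 (metabolism) genes at an unadjusted p under 0.05.

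Among the given markers that passed, Cd200 lay in more cells than Sostdc1. Its level in members was 84.5, 49.4, 120 and 171 CPM, against 21.2, 22.9, 26.7 and 30.4 CPM in Tnfsf8-negative cells, so that members were above in 3 libraries, while the young choroid plexus value was 1 UMI, under the floor of 3 UMIs (148 CPM there). The log2 fold was 2.11 ± 0.33 (SE, edgeR, adjusted p = 0.0022), and 34 members and 32 Tnfsf8-negative cells had a UMI. Counted once a cell the log2 fold was 1.63 with an adjusted p of 0.084 in edgeR, and without aged meninges or aged choroid plexus the adjusted p was 0.106 and 0.488. After thinning, 12.0% of aged meninges members (exact 95% interval 5.64% to 21.6%) and 12.5% of aged choroid plexus members (5.18% to 24.1%) had a Cd200 UMI, against 2.44% (0.80% to 5.60%) and 1.55% (0.19% to 5.49%) of Tnfsf8-negative cells.

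Pdcd1 stood at 190, 0, 304 and 229 CPM in members and at 57.5, 28.6, 105 and 124 CPM in Tnfsf8-negative cells. Members were above in 3 of 4 libraries, and the 6 young choroid plexus members had no UMI. The log2 fold was 1.19 ± 0.27 (SE, edgeR, adjusted p = 0.036), and the call was lost in 11 of 17 alternatives, with an adjusted p of 0.413 in DESeq2, 0.337 in matched cells, and 0.620 and 0.765 in edgeR without aged meninges and without aged choroid plexus. Lag3 was at 0 in both young sets of members and at 110 and 194 CPM in the aged sets, against 53.5 and 33.1 CPM in aged Tnfsf8-negative cells, with a log2 fold of 1.60 ± 0.39 that did not pass (edgeR, adjusted p = 0.071). It passed in 4 of 16 alternatives, among them the aged libraries only (log2 fold 1.67, edgeR adjusted p = 4.1e-05). Tigit, a receptor that inhibits T cells, stood at 245 and 251 CPM in aged members and at 116 and 102 CPM in aged Tnfsf8-negative cells (log2 fold 1.29 ± 0.26, edgeR adjusted p = 0.016). Any of Sostdc1, Pdcd1, Lag3 or Cd200 had a UMI in 62.5%, 16.7%, 51.3% and 51.8% of members and in 17.0%, 12.5%, 28.2% and 30% of Tnfsf8-negative cells. After thinning these shares were 25%, 0%, 29.3% and 41.1% of members and 5.05%, 8.93%, 16.6% and 15.5% of Tnfsf8-negative cells. Members thus stayed above in young meninges and both aged libraries, and the direction turned in young choroid plexus, with its 6 members. These 4 genes were named as markers of the cells with earlier results of these data known, so they are not independent evidence of the direction.

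Sostdc1 and Spp1 came from few cells. Sostdc1 had 0, 0, 43 and 77 UMIs in members and 0, 0, 27 and 3 UMIs in Tnfsf8-negative cells (log2 fold 3.18 ± 0.45, edgeR adjusted p = 0.0015). Those 120 member UMIs lay in 11 of 146 cells, and 1 cell held 34.2% of them. The Sostdc1 call was lost in 5 of 15 alternatives: with DESeq2 (adjusted p = 0.9998), with robust shrinkage in edgeR (0.747), without the library block (0.074), without young choroid plexus (0.071) and without aged choroid plexus (log2 fold 2.01, adjusted p = 0.693), and without aged meninges the log2 fold was 5.47. Spp1 had 0, 0, 43 and 159 UMIs in members and 0, 1, 8 and 11 in Tnfsf8-negative cells (log2 fold 4.33 ± 0.37, edgeR adjusted p = 6.6e-07), also in 11 members, with 48.5% in 1 cell. The Spp1 call was lost without aged choroid plexus (edgeR, adjusted p = 0.321). Of the 146 members 86 held no UMI of the B cell, macrophage, fibroblast and natural killer lists, and in these lay 14 of the 120 Sostdc1 UMIs (3 of 11 cells) and 18 of the 202 Spp1 UMIs (2 of 11 cells), too few to be tested. The other Spp1-positive members held a UMI of the fibroblast list, which here was Igfbp7, in 5 cells, of the B cell list in 3 and of the macrophage list in 2, and the part of such cells was not tested. Penk, which encodes the precursor of the enkephalins, followed the same pattern, with 58 UMIs in 10 aged members and 15 UMIs in 9 Tnfsf8-negative cells. Too few cells held any of these 3 genes for them to be tested once a cell. Cebpa, a transcription factor gene on the same marker list, had 2 UMIs in 1 member, and Tnfrsf8, the gene of the receptor CD30, had none in members or in Tnfsf8-negative cells.

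**Figure D2:**
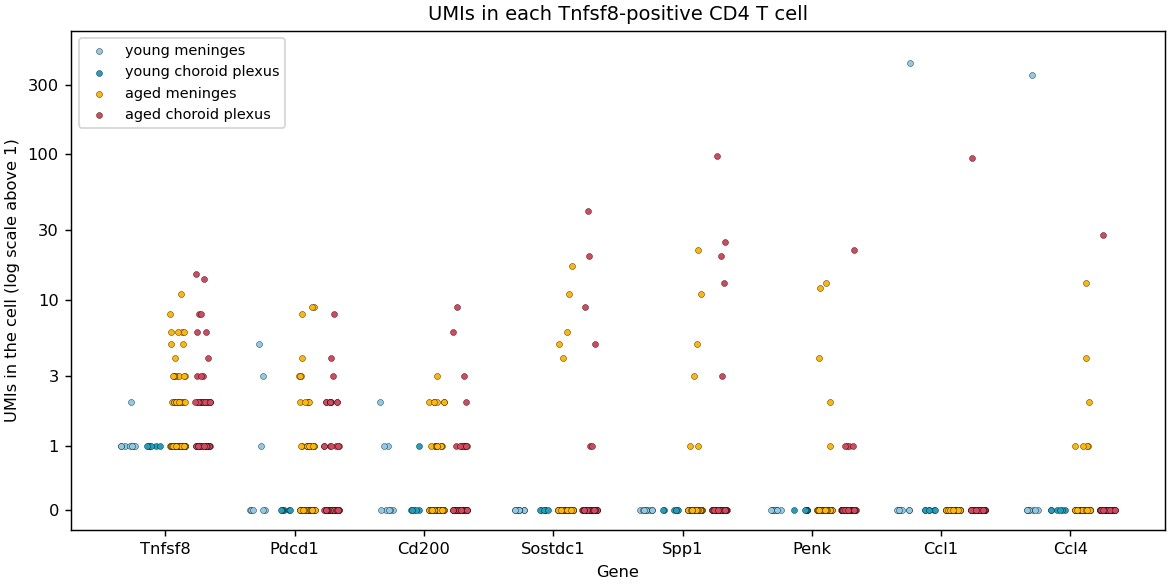
UMIs of 8 genes (x axis) in each of the 146 members, 1 point a cell, coloured by library, on a y axis that is logarithmic above 1 UMI. Pdcd1 and Cd200 had UMIs in 46 and 34 members, with at most 9 and 9 in a cell, Sostdc1 and Spp1 in 11 members each, with at most 41 and 98, and Ccl1 in 2 members, with at most 421.

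Other higher genes were spread over more cells. Tbc1d4, a GTPase-activating protein of glucose transporter traffic, stood at 232, 49.4, 295 and 257 CPM in members and at 33.3, 17.2, 97.4 and 116 CPM in Tnfsf8-negative cells, above in 3 libraries, with 1 UMI in young choroid plexus members (log2 fold 1.52 ± 0.26, edgeR adjusted p = 0.00545). It had UMIs in 63 of 146 members and 76 of 495 Tnfsf8-negative cells, and counted once a cell it had a log2 fold of 1.15 with an edgeR adjusted p of 0.047, the only call there. Ptms (parathymosin) stood at 190, 148, 230 and 229 CPM against 57.5, 63.0, 84.0 and 91.1 CPM. After thinning its shares were 26.7% against 11.7% in aged meninges and 23.2% against 6.20% in aged choroid plexus. Of the 28 higher genes it alone had exact intervals apart in both. The share of all tested genes with intervals apart was not counted, so this is a description. The log2 fold of Ptms was 1.34 ± 0.24 (edgeR, adjusted p = 0.0085).

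Izumo1r, which encodes folate receptor 4 of regulatory and anergic CD4+ T cells, stood at 380, 148, 369 and 360 CPM in members and at 109, 97.3, 222 and 160 CPM in Tnfsf8-negative cells (log2 fold 0.98 ± 0.22, edgeR adjusted p = 0.036). Tnfsf11 (RANKL, a ligand of the same superfamily as CD153) stood at 359, 49.4, 105 and 177 CPM against 30.3, 5.73, 57.3 and 19.3 CPM (log2 fold 2.17 ± 0.38, edgeR adjusted p = 0.0065). Odc1, the rate-limiting enzyme of polyamine synthesis, stood at 465, 98.8, 484 and 486 CPM against 121, 80.2, 290 and 171 CPM (log2 fold 1.13 ± 0.22, edgeR adjusted p = 0.014). All 3 were above in young meninges and in both aged libraries. In young choroid plexus members they had 3, 1 and 2 UMIs, too few to give a direction. Tnfrsf4 (OX40, a costimulatory receptor) was above in 3 of 4, with 402, 0, 334 and 726 CPM against 54.5, 11.5, 235 and 218 CPM.

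The other higher calls were Batf, a transcription factor of activated T cells, Rilpl2 and Eea1 of vesicle traffic, Rgs16, Mir155hg (the host gene of miR-155), Il1r2 (a decoy receptor of interleukin-1), Ebi3, Cd83, Ehd1, Nrn1, Cd9, Igfbp7, Cdkn2a, Trbv26 and the chemokine genes Ccl1 and Ccl3. In all, 12 of the 28 genes had UMIs in 30 or more members, 12 in under 15, and for Ccl1, Ccl3 and Cdkn2a a single cell held over 50% of the member UMIs. Ccl1 had 421 UMIs in 1 young meninges member that also held 348 UMIs of Ccl4, 49 of Ccl3 and 23 of Csf2, and 95 UMIs in 1 aged choroid plexus member. Igfbp7 is also on the fibroblast list, and the 4 collagen and decorin genes of that list were at 0 in the members of all 4 libraries.

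**Figure D3:**
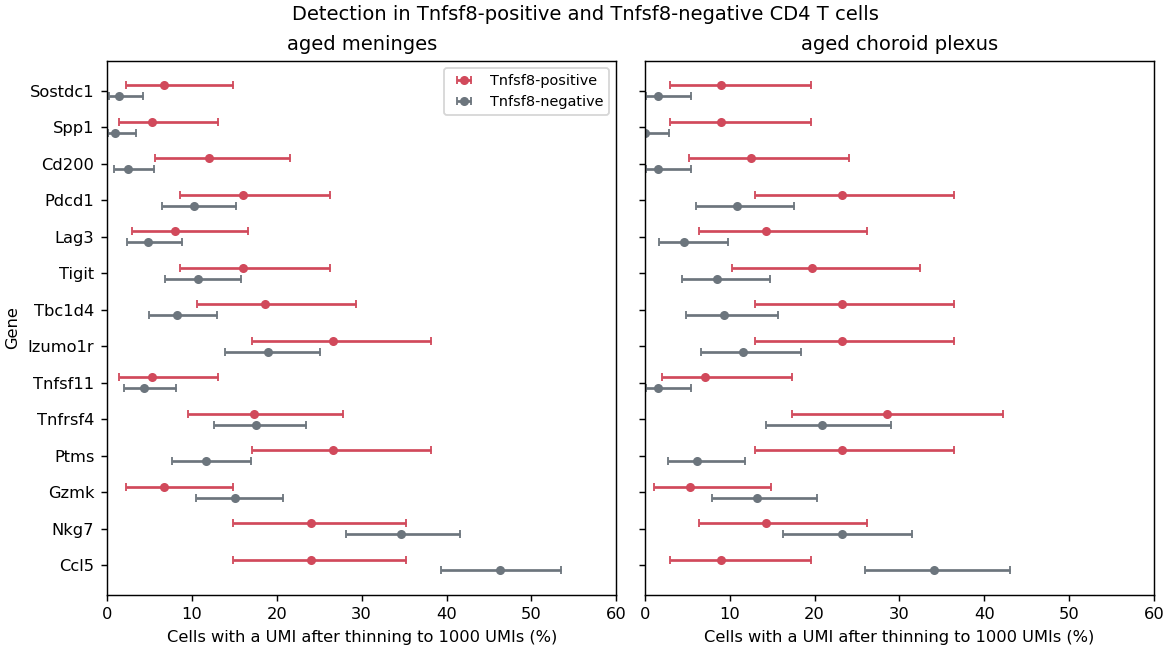
Percent of cells with a UMI after thinning each cell to 1000 UMIs (x axis), with exact 95% binomial intervals, for 14 genes (y axis) in Tnfsf8-positive and Tnfsf8-negative CD4+ T cells of the 2 aged libraries. Ptms and Cd200 lay to the right in members, and Ccl5 lay to the left (24.0% against 46.3% in meninges, 8.93% against 34.1% in choroid plexus).

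Among genes lower in members, Gzmk, which encodes granzyme K, stood at 99.8 and 51.4 CPM in aged members and at 252 and 166 CPM in aged Tnfsf8-negative cells (log2 fold -1.57 ± 0.32, edgeR adjusted p = 0.016). Ccl5, a chemokine of cytotoxic and memory T cells, had UMIs in 50%, 50%, 28.9% and 16.1% of members and in 41.0%, 28.6%, 52.6% and 41.5% of Tnfsf8-negative cells, so members were below in the aged libraries and not in the young ones. Its log2 fold of -0.75 ± 0.23 did not pass (edgeR, adjusted p = 0.23). Counted once a cell it was -0.98 with an edgeR adjusted p of 0.084. Nkg7, a granule gene of cytotoxic lymphocytes, had a log2 fold of -0.79 ± 0.20 (edgeR, adjusted p = 0.084).

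Of the genes of dividing cells, a few passed as lower, from few cells. Birc5 had no UMI in 146 members and 59 UMIs in 12 Tnfsf8-negative cells, and Ube2c none in members and 78 UMIs in 8 cells. The share of cells with a UMI of any of the 10 cell cycle genes was 59.2% and 60.7% in aged members and 54.5% and 60.8% in aged Tnfsf8-negative cells. The histone gene Hist1h2ap had 0, 1, 13 and 19 UMIs in members and 179, 36, 414 and 137 in Tnfsf8-negative cells. Its share of cells differed little in the aged libraries, at 13.2% and 16.1% of members and 9.57% and 18.5% of Tnfsf8-negative cells, so the difference lay in the UMIs per cell. Hmgb2 (log2 fold -0.91 ± 0.18, edgeR adjusted p = 0.016), Hist1h2ae, Itpr3, Lars2 and Zfp36 were also lower. Il17a had no UMI in members and 115 UMIs in 4 Tnfsf8-negative cells, 114 of them in aged meninges, and Cxcl2 none in members and 71 UMIs in 1 Tnfsf8-negative cell. Ifitm1, Igfbp4, Trbv17 and Gm42418 complete the lower calls.

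**Figure D4:**
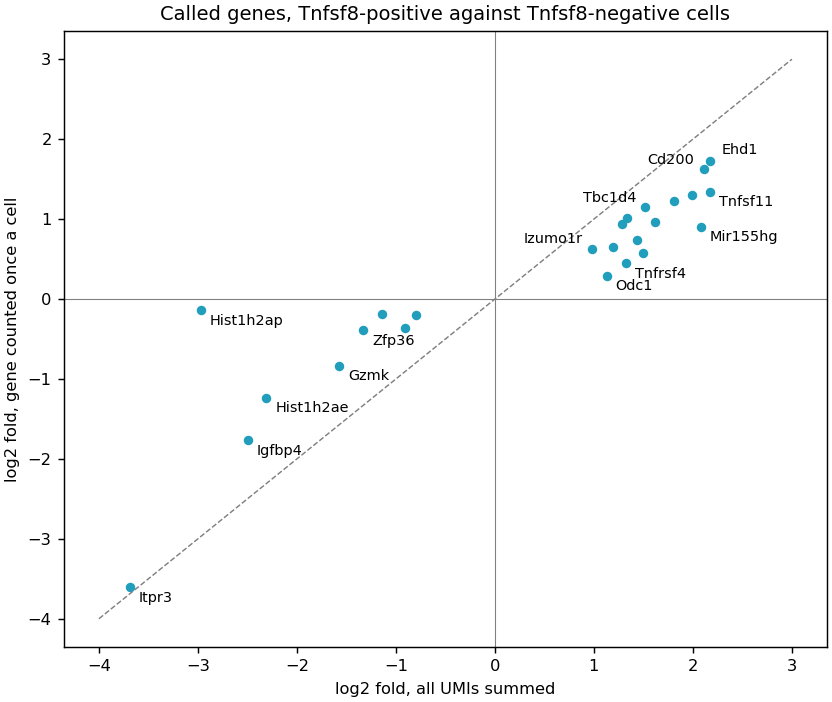
Log2 fold of members over Tnfsf8-negative cells with all UMIs summed (x axis) and with each gene counted at most once a cell (y axis), for the 25 called genes tested both ways, with a dashed line of equality. All points, which come from the same cells both ways, kept their sign, Tbc1d4 and Cd200 kept most of their fold, and Hist1h2ap moved from -2.97 to -0.14.

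A list of 11 cytokine, receptor and memory genes that the study names, which does not hold Spp1, was looked at in the same fit, and none of the 10 tested passed in edgeR or DESeq2, with 3 of 10 folds positive. The 5 genes at an unadjusted p under 0.05 (Il4, Cxcr6, Ccr2, Klrg1 and Ccl5) all had a negative log2 fold, among them Cxcr6, a receptor of tissue-resident T cells, at -0.45 ± 0.19, and Ccr2, a receptor for monocyte chemoattractants, at -1.11 ± 0.37. Ifng had UMIs in 12.5%, 33.3%, 22.4% and 16.1% of members and in 6%, 1.79%, 13.4% and 4.62% of Tnfsf8-negative cells, with a log2 fold of 0.52 ± 0.40. Il2 was detected in 18 members and 46 Tnfsf8-negative cells (log2 fold 0.09 ± 0.41). Il4 had 4 UMIs in 3 members and 40 UMIs in 23 Tnfsf8-negative cells (log2 fold -1.66 ± 0.67, edgeR adjusted p = 0.52). The chemokine receptor gene Cxcr3 stood at 324 and 166 CPM in aged members and 317 and 202 CPM in aged Tnfsf8-negative cells. Cd44, a marker of antigen-experienced cells, had UMIs in 42.1% and 41.1% of aged members and 23.0% and 22.3% of aged Tnfsf8-negative cells, with a log2 fold of 0.42 ± 0.26 (edgeR, adjusted p = 0.80). After thinning those Cd44 shares were 14.7% and 21.4% against 11.2% and 13.2%.

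Members differed among themselves with the number of Tnfsf8 UMIs. Because the rule's own gene sets this split, it is given as a description. Pdcd1 had a UMI in 8 of 47 aged meninges members with 1 Tnfsf8 UMI (17.0%) and in 16 of 29 with 2 or more (55.2%). In aged choroid plexus the counts were 7 of 30 (23.3%) and 12 of 26 (46.2%). Lag3 was found in 12.8% and 27.6% in meninges and in 3.33% and 46.2% in choroid plexus. Tbc1d4 was found in 31.9% and 58.6% in meninges and in 36.7% and 57.7% in choroid plexus, and Tnfsf11 in 8.51% and 34.5% and in 16.7% and 34.6%. The depth of the 2 classes was alike, with a median of 2186 and 2018 UMIs in meninges and 2491.5 and 2819.5 in choroid plexus.

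**Figure D5:**
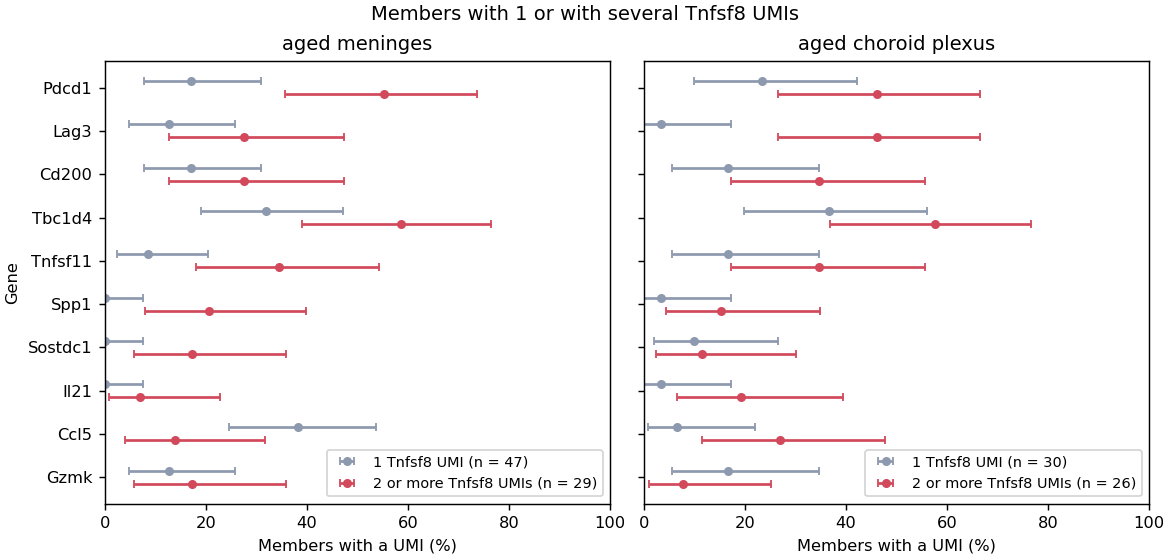
Percent of aged members with a UMI of each of 10 genes (x axis, exact 95% binomial intervals) for members with 1 Tnfsf8 UMI and with 2 or more, in aged meninges (47 and 29 cells) and aged choroid plexus (30 and 26 cells). Pdcd1, Lag3, Tbc1d4 and Tnfsf11 lay higher with 2 or more Tnfsf8 UMIs in both tissues, while Ccl5 and Gzmk had opposite directions in the 2 tissues.

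Cells positive for the rare secreted factors overlapped in part. Of the 11 Sostdc1-positive members, 8 had a Pdcd1 UMI, 8 a Cd200 UMI and 5 an Spp1 UMI, against 38, 26 and 6 of the other 135. Of the 11 Spp1-positive members 10 had 2 or more Tnfsf8 UMIs, 8 a Lag3 UMI and 11 a Tbc1d4 UMI, against 46, 19 and 52 of the other 135. Il21, the cytokine of follicular helper cells, had UMIs in 8 members and 1 of 495 Tnfsf8-negative cells, too few UMIs for the test, and 7 of those 8 members had 2 or more Tnfsf8 UMIs and 7 a Pdcd1 UMI. These cells were deeper than the rest, with a median of 3505 UMIs in both Sostdc1-positive and Spp1-positive members against 2343 in the others, and the part of depth was not tested.

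To leave out naive-like cells, at least 1 UMI of Cd44, S100a4, S100a6 or Itgb1 and none of Lef1 was then required in both sets. This kept 4, 2, 61 and 47 members. Of 5039 genes, 21 (0.417%) were higher and 19 (0.377%) lower in edgeR at an adjusted p under 0.05. The gated cells are a part of the cells in which genes were called without the gate, so agreement is in part built in and no independent support. All 40 genes called without the gate and tested here kept their direction and 27 were called again, among them Cd200 (log2 fold 1.92), Sostdc1, Spp1, Tnfsf11, Tnfrsf4 and Gzmk. Pdcd1, Tigit and Izumo1r were not, with log2 folds of 0.81, 0.56 and 0.71, nor were Batf, at 0.73, and Tbc1d4, at 1.17 with an edgeR adjusted p of 0.067. Ptms and Odc1 missed the threshold too, at 1.11 and 0.94, each with an edgeR adjusted p of 0.10. The cell cycle genes Mki67, Top2a, Stmn1 and Birc5 and the terminal effector marker Klrg1 were lower. These counts also moved with single libraries: without young choroid plexus there was 1 higher and 0 lower calls (260 genes at an unadjusted p under 0.05), without aged meninges 5 and 0 (129 genes), without aged choroid plexus 4 and 4, and counted once a cell 0 and 1, with 251 genes at an unadjusted p under 0.05.

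Regulatory T cells, which Foxp3 defines, were left out by the rule, and members were compared with the 3, 1, 42 and 18 CD4+ cells that had Foxp3 but no Ccr7 UMI. Of 3411 genes, 24 (0.704%) were higher and 39 (1.14%) lower in members in edgeR. Counted once a cell the balance turned, with 211 higher and 10 lower. The Foxp3-positive cells were deeper, with medians of 5635, 5609, 3308 and 5094 UMIs a cell against 4936.5, 2697, 2154.5 and 2597 in members, and the part of this depth difference was not tested. Of the cytotoxic list, Gzmk, Nkg7, Ccl3, Ccl4 and Ccl5 were higher and Klrg1 was lower, and 1 young meninges member held 49 of 58 Ccl3 and 348 of 399 Ccl4 member UMIs. Also higher were Sostdc1, Spp1, Cd200 and Tbc1d4, Tcf7 and Slamf6, which mark less differentiated T cells, Bcl2, an inhibitor of apoptosis, and Cd40lg, the helper ligand of B cells. Lower were Il2ra (CD25) and Ikzf2 (Helios) of regulatory T cells (log2 folds -2.11 and -1.46, edgeR adjusted p = 0.041 and 0.0038), and Top2a, Stmn1 and Birc5 of the cell cycle. Pdcd1, Tigit, Izumo1r and Tnfrsf4 did not pass, with log2 folds of 0.65, 0.20, -0.08 and -0.64. Macrophage and antigen presentation genes (Lyz2, C1qb, Tyrobp, Cd74, H2-Aa) were lower as well, and 1 Foxp3-positive cell of aged choroid plexus held 221 macrophage UMIs, 2437 CPM of that set. No gene was called without aged meninges, without aged choroid plexus, or with all 11819 genes of at least 1 UMI tested, where 91, 125 and 496 genes had an unadjusted p under 0.05.

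T cells with neither Cd4 nor Cd8 UMIs gave a second comparison of Tnfsf8-positive with Tnfsf8-negative cells in the same libraries, chosen after the data were seen. The fit used a part of these cells, with 14, 17, 103 and 60 Tnfsf8-positive and 175, 108, 486 and 238 Tnfsf8-negative ones. Of 7574 genes 6 (0.0792%) were higher and 6 (0.0792%) lower in edgeR, and counted once a cell 1 and 1, with 427 genes at an unadjusted p under 0.05. Of all 7574 genes, 43.2% had a positive fold there. Of the 28 genes higher in members, 27 were tested there, 24 had a positive fold and 2 (Spp1 and Il1r2) were called. Of the 15 lower genes 14 were tested, 4 had a negative fold and 2 (Gzmk and Trbv17) were called, so most of the lower genes went the other way. Cd200 and Tbc1d4 had log2 folds of 1.44 and 1.06 (edgeR, adjusted p = 0.20 and 0.47). Ccl5 was lower there with a log2 fold of -1.93 (edgeR, adjusted p = 0.014), and the proliferation genes were not.

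For the ages, values are set side by side with no test, and 14 young members limit what can be seen. Genes were counted where the higher library had at least 20 UMIs, the log2 ratio of CPM + 20 was at least 1 in size, and exact Poisson 95% intervals were apart. In meninges 52 of 1436 genes (3.62%) were higher and 24 (1.67%) lower in aged members. In choroid plexus 25 of 1176 (2.13%) were higher and 2 (0.17%) lower. After thinning each member to 1000 UMIs these counts were 6 and 2, and 3 and 0. Young members summed to 47316 UMIs in meninges and 20245 in choroid plexus, aged members to 200334 and 174984. The minimum of 20 UMIs thus asked for a higher CPM in young than in aged members. The balance of higher and lower genes is therefore not read as a result.

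Past that rule in both tissues were 7 genes, all higher in aged members: Spp1, Sostdc1, Eea1, Ier2, Junb, S100a6 and Crip1. S100a6, a calcium-binding protein of memory cells, stood at 676 and 1235 CPM in young and at 2506 and 2657 CPM in aged members. Tnfsf8-negative cells had 575 and 670 CPM of it in the young and 1866 and 1681 CPM in the aged libraries. Crip1, a LIM domain protein, stood at 444 and 642 CPM in young and at 1373 and 1492 CPM in aged members, against 984, 1191, 1398 and 1668 CPM in Tnfsf8-negative cells. The summed level of the memory and S100 list, which holds both genes, was also higher with age in either class, at 7144 and 11950 CPM in meninges members and 6124 and 10187 CPM in Tnfsf8-negative cells, young and aged in turn. Junb and Ier2 are immediate early genes that also respond to tissue dissociation, and Junb stood at 634 and 1912 CPM in young and aged meninges and at 148 and 646 CPM in young and aged choroid plexus. Tnfsf8-negative cells had 2453 and 2168 CPM of Junb in young and aged meninges and 200.4 and 251 CPM in choroid plexus. Sostdc1 was at least 3.39-fold higher in aged than in young meninges members and at least 2.97-fold higher in choroid plexus, taking 3 UMIs for the libraries at 0. Spp1 was at least 3.39-fold and 6.13-fold higher, but 1 aged choroid plexus member held 98 of the 159 Spp1 UMIs of that set. In cells, however, the exact 95% intervals of 0 of 8 and 0 of 6 young members with a Sostdc1 UMI reach up to 36.9% and 45.9%, and only 6.58% and 10.7% of aged members had a Sostdc1 UMI.

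Among the 24 genes lower in aged meninges members, 4 had all of their young UMIs in the 1 young member rich in chemokines, which held 22.0% of the UMIs of all 8 young meninges members. Ccl1 stood at 8898 CPM in young and 0 in aged meninges members, Ccl4 at 7355 and 115 CPM, Ccl3 at 1036 and 9.98 CPM, and Csf2 at 486 and 0 CPM. The difference between members and Tnfsf8-negative cells was also tested for a change with age, with the tissues standing in as replicates of an age, and 4 of 6149 genes (0.0651%) passed in edgeR. DESeq2 called none, with 76 genes at an unadjusted p under 0.05, and edgeR called none in cells matched on UMIs, with 146.

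T cell receptor V genes, which the rule did not use, were spread over many genes in members. Of 68 aged meninges members with an assignable Trbv gene, 17 different genes were used and the most frequent, Trbv2, was in 10 cells (14.7%). Of 51 aged choroid plexus members 16 were used, with Trbv13-2 in 11 (21.6%). Among pairs of cells 7.24% and 8.55% shared a Trbv gene, against 7.67% and 7.54% among Tnfsf8-negative cells of the same libraries. For the alpha chain, Trav6-7-dv9 was the most frequent in both, in 4 of 56 (level with Trav8-1) and 4 of 40 cells. In young meninges Trbv19 and Trbv20 were each in 2 of 8 members, and in young choroid plexus the 6 members used 6 different genes. V genes are similar in sequence and the junctions were not read, so a shared gene is no shared clone.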

How the data were processed

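The deposited files are matrices of raw UMI counts per gene and cell barcode, 1 library each, with no normalization by the authors. Per the file headers they were written by Cell Ranger 3.1.0, whereas the submitters' processing notes name Cell Ranger 5.1.0 and STAR with the mm10 build. Counts of genes that share sequence (histones, V genes, Ccl3 and Ccl4) can be split between copies. The study's methods name DoubletFinder for the removal of doublets, but whether this came before deposit, and whether free RNA was removed, was not given in the sources used here. No doublet caller decided the members.

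Cells were gated on UMIs (Python 3.11.15, numpy 2.4.6, pandas 2.3.3, scipy 1.17.1). Shares are of cells with all their UMIs, at unequal depths, unless given as thinned to 1000 UMIs. Doublet scores came from Scrublet in scanpy 1.11.5. UMIs were summed per library and set, genes with at least 30 UMIs over the 8 sums were kept, the genes of the rule were left out, and edgeR 4.0.16 (R 4.3.3; TMM, quasi-likelihood test, library as block, Benjamini-Hochberg) was fitted across all genes. DESeq2 1.42.0 was an alternative. The setting of edgeR was settled after 4 settings had been run and their calls seen: the newer method without robust shrinkage was kept because its prior degrees of freedom were finite. P-values rest on the spread between the 4 libraries, moderated for each gene toward the spread of the other genes. A call therefore need not be repeated across libraries, and Cxcl2 passed with its UMIs in 1 cell. Fold changes are of log2 CPM. On simulated sums of the 6149 genes the fit recovered 82 of 100 genes changed by a log2 of 2, 11 of 100 changed by 1, and called 1 of 5949 unchanged genes. The simulation gave all genes the same dispersion and changed only genes with many UMIs. These rates therefore do not carry over to called genes with few UMIs or with their UMIs in few cells. Libraries were grouped by the labels' tissue and age. Of 31053 gene identifiers, 30934 were found in GENCODE vM21 (GRCm38), which gave the coordinates.

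Genes were named by rule: the rule's genes and markers, genes the study names, list members past the test with up to 4 more a list, the called genes with the largest folds and 1 sign in all 4 libraries (6 higher and 8 lower met this, receptor, ribosomal and unnamed genes left out), those past the size rule in both tissues, the age interaction calls and the leading V genes. Other genes named are calls, named after their values were seen. The members and lists were chosen with earlier results of these data known. Aldoa, Trgc1, Trgc2 and Trgc4 were not matched. A marker withheld from this text is not reported here.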

Additional observations from a re-analysis of the deposited data

Results flagged for a closer look

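The difference between Tnfsf8-positive and Tnfsf8-negative cells changed with age, by the interaction term of the edgeR fit, in 4 genes. No gene was called with DESeq2 (76 at an unadjusted p under 0.05), with all genes of at least 1 UMI in edgeR (454) or in cells matched on UMIs (146), and 124 genes were called counted once a cell. The change was 2.89 on the log2 scale for Btg2, an antiproliferative gene, which had 4, 1, 109 and 46 UMIs in members and 213, 41, 339 and 88 in Tnfsf8-negative cells. It was 1.46 for Gm42418, a gene that overlaps ribosomal RNA sequence. It was -10.14 for Csf2 and -7.04 for Ccl4, where 1 young meninges member held 23 of 24 and 348 of 399 member UMIs.

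Ccr7-positive CD4+ T cells, which the rule leaves out, also had Tnfsf8 UMIs, 14 of them in 11 cells of aged meninges and 15 in 5 cells of aged choroid plexus. In aged meninges 33.3% of 33 such cells had a UMI (exact 95% interval 17.96% to 51.8%), above the 7.59% of 145 cells in young meninges (3.85% to 13.2%). After thinning to 1000 UMIs the shares were 15.6% (5.28% to 32.8%) and 2.76% (0.76% to 6.91%), with overlapping intervals. In choroid plexus the intervals overlapped, with 20% of 25 aged cells (6.83% to 40.7%) and 7% of 100 young cells (2.86% to 13.9%). In CD8+ T cells of aged and young meninges the shares were 9.25% and 8.85%, and 4.38% and 1.15% after thinning. Free RNA was not estimated, and its part in these shares was not tested. With 1 library an age and tissue the difference with age was not tested.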

How the results depend on the processing

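The number of genes called was the least stable result. For members against Tnfsf8-negative cells the 28 higher and 15 lower calls became 7 and 2 with DESeq2, 3 and 1 without the library block, 58 and 36 in the aged libraries only, 1 and 0 with each gene counted once a cell (edgeR, 371 genes at an unadjusted p under 0.05), 6 and 9 in cells matched on UMIs, 4 and 1 after thinning to 1000 UMIs, 18 and 0 with at least 2 Tnfsf8 UMIs (3 libraries, 376 at an unadjusted p under 0.05), 7 and 9 without cells holding UMIs of other cell types, 41 and 35 with edgeR's legacy method, 31 and 19 with robust shrinkage, and 41 and 23 without the highest 5% of doublet scores. Leaving out 1 library gave 1 to 18 higher and 0 to 11 lower. Across these fits all called genes that were tested kept their direction, except 2 of 43 under DESeq2, of which Il17a went from a log2 fold of -7.49 to 0.13. These fits reuse all or part of the same cells. The genes were chosen by their fold in those cells, so a kept direction is no independent support.

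With the memory gate the 21 and 19 calls became 0 and 1 with DESeq2 (77 at an unadjusted p under 0.05), 10 and 2 without the block, 35 higher in the aged libraries only, 0 and 1 once a cell, 1 and 0 in matched cells, and 1 to 24 and 0 to 18 without 1 library. Against Foxp3-positive cells the 24 and 39 calls became 0 and 0 with all genes of at least 1 UMI, 4 and 7 with DESeq2, 8 and 15 without the block, 55 and 75 in the aged libraries only, 211 and 10 once a cell, and 0 to 27 and 0 to 51 without 1 library. The age interaction had 0 calls with all genes of at least 1 UMI (454 at an unadjusted p under 0.05), with DESeq2 and in matched cells, and 124 once a cell. The causes were not tested. Of 425 pairs of a named gene and an alternative, 225 kept direction and side of the threshold, 195 lost the call, 4 gained it and 1 reversed.

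By age, the 52 and 24 genes of meninges became 6 and 2 after thinning and 22 and 11 with at least 2 Tnfsf8 UMIs, and the lower ones became 6 with at least 40 UMIs. The 25 and 2 of choroid plexus became 3 and 0 after thinning and 11 and 1 without the highest doublet scores, and no young choroid plexus member had 2 Tnfsf8 UMIs. The shares of members were 1.87%, 3.23%, 15% and 17.3% after thinning, 0.926%, 0%, 10.2% and 14.0% with at least 2 UMIs, and 3.08%, 3.61% and 21.0% (the first 3 libraries) of all CD4+ T cells. Matching against Foxp3-positive cells was not run, as these were fewer than the members. Beyond the library block no paired analysis was run, and each group has 1 library. At 8 and 6 young members, 3 UMIs correspond to 63.4 and 148 CPM, so no direction can be read from levels below these.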

Other observations

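Outside the rule, T cells with neither Cd4 nor Cd8 UMIs held a Tnfsf8 UMI in 7.84%, 12.0%, 17.0% and 20.9% of 485, 275, 735 and 358 cells, which is more Tnfsf8-positive cells in the aged libraries (125 and 75) than there were members. Of CD4+ T cells with a Tnfsf8 UMI, 10 and 2 in the aged libraries also had a Foxp3 UMI. A further 1, 0, 15 and 8 cells had Cd3, Cd4 and Tnfsf8 UMIs but failed the filter on genes and mitochondrial UMIs.

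The immediate early genes stood higher in aged meninges than in aged choroid plexus, in members and in Tnfsf8-negative cells alike. The AP-1 and dissociation list summed to 4557 CPM in aged meninges members and 1926 CPM in aged choroid plexus members, and to 5478 and 1140 CPM in the Tnfsf8-negative cells. Klf2, a transcription factor of quiescent and recirculating T cells, stood at 614 and 120 CPM in the same members and at 348 and 271 CPM in Tnfsf8-negative cells. In the young libraries the AP-1 and dissociation list summed to 2029 CPM in meninges members and 642 CPM in choroid plexus members. In young Tnfsf8-negative cells it summed to 4919 and 1013.5 CPM. Each tissue had 1 library an age, tissue and library cannot be told apart within an age, and the difference was not tested.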
